A study of Mus musculus with 4 samples.

Results

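The 10 genes described here encode acute phase proteins, plasma proteins that the liver releases in larger amounts during inflammation. They are the serum amyloid A genes Saa1, Saa2, Saa3 and Saa4, the orosomucoid genes Orm1 and Orm2, haptoglobin (Hp), hemopexin (Hpx), lipocalin 2 (Lcn2) and C-reactive protein (Crp). The genes were named by family, with no measured value in the rule, and every non-control probe whose transcript belongs to one of them was taken. In all, 11 probes covered the 10 genes, of 56605 probes and 22911 gene symbols on the array. Lcn2 had 2 probes and each other gene had 1. RNA came from mid-gestation fetal livers of C57BL/6J mice, and was hybridised to single-colour Agilent arrays. There were 2 arrays in each of the groups compared. The dams of the CD group ate a control diet with 4.3% of energy as fat during gestation, and the dams of the HFD group ate a high-fat diet with 60% of energy as fat. No allele, drug or transgene differed between the groups. The labels do not say how many fetuses or dams stand behind an array, nor that the replicates are separate animals, so the p-values below measure only the spread between these samples. In bulk liver RNA, fewer cells of a type and less RNA per cell cannot be told apart.

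The acute phase response is a rapid change in what hepatocytes secrete. Interleukin 6, interleukin 1 and tumor necrosis factor, made mostly by macrophages, act on hepatocyte receptors, and the transcription factors STAT3, C/EBP and NF-kB then raise the positive acute phase genes while genes for albumin and other carrier proteins fall. At mid-gestation the liver is also the main blood-forming organ of the fetus, so its RNA holds hepatoblast, erythroid and myeloid transcripts together.

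The level of a probe is given throughout on a log2 scale relative to the 75th percentile of the array's probes, so that a probe at 0 is as bright as that percentile. Levels of different probes are not comparable, since probes bind with different strength. All arrays shared 1 slide and 1 scan. Their median intensity ran from 70.2 (CD replicate 2) to 120.5 (CD replicate 1), and between 65.4% and 70.0% of spots were well above background. The number of arrays limits the precision. An exact permutation test of 2 against 2 arrays cannot give a two-sided p below 0.333, and limma, which shares information on the spread between probes, was used instead. The labels give the sex as female for all 4 samples, without saying whether the fetus or the dam is meant. Sex-linked transcripts did not follow a single sex. Xist, which is transcribed from the inactive X chromosome of females, was at -8.29 on CD replicate 1 and -6.84 on HFD replicate 1, and at -0.65 on CD replicate 2 and -0.74 on HFD replicate 2. The Y-linked gene Kdm5d was at -0.40 and -0.31 on the arrays numbered 1 and at -7.85 and -7.99 on those numbered 2. The replicate number therefore coincides with this split in both diets, and differences between the diets are given below within each number too.

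Promoter letters are shown for 4 genes: Saa1 and Saa2 because their upstream regions are nearly the same, their neighbour Saa3 as a contrast, and Lcn2 because its probes held the widest difference between the diets. The serum amyloid A genes lie side by side in the order Saa3, Saa4, Saa1, Saa2 on mouse chromosome 7, with no other protein-coding gene between them in RefSeq. Orm1 and Orm2 flank Orm3 on chromosome 4. RefSeq windows of assembly GRCm38.p6 were matched for 8 of the 10 genes; Hp and Orm1 were not matched. The 250 bases before each start site are printed 5′ to 3′ on the gene's own strand, at chr7:46742981-46743230 on the minus strand for Saa1, chr7:46751583-46751832 on the plus strand for Saa2, chr7:46715677-46715926 on the minus strand for Saa3 and chr2:32387740-32387989 on the minus strand for Lcn2. Capitals mark matches to the 3 motifs given after the sequences.
Saa1: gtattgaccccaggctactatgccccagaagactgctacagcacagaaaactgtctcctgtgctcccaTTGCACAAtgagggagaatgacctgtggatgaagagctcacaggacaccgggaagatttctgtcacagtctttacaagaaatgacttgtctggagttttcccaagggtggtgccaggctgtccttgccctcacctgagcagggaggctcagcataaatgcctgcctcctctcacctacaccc
Saa2: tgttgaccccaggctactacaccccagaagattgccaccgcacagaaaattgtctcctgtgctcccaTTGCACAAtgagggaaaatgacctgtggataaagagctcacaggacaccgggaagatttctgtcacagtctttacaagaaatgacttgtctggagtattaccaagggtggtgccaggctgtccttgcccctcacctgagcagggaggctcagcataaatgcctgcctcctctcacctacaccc
Saa3: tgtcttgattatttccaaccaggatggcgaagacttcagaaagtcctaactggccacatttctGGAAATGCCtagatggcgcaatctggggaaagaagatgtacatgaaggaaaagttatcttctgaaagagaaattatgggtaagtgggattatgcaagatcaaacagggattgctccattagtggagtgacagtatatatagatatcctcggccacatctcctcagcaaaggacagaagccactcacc
Lcn2: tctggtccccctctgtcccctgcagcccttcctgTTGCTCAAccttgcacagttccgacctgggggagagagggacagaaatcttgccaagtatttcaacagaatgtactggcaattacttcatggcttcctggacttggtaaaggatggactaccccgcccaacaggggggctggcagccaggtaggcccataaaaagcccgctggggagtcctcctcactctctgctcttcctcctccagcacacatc
Saa1 and Saa2 shared 238 of 251 aligned positions (94.8%), with 11 mismatches, while Saa1 and Saa3 shared 52.2%. The motifs searched, on both strands, were TTGCNCAA for C/EBP, TTCNNNGAA for STAT and GGNNTTTCC for NF-kB, where N is any base; they were chosen after these letters were seen. The C/EBP letters were found in 5 of the 8 windows (Saa1, Saa2, Saa4, Orm2 and Lcn2) and in 2.61% of 32851 windows of the same length. The NF-kB letters were found in 1 of 8, that of Saa3, and in 4.93% of all windows. The STAT letters were in 0 of 8 and in 7.02% of all. A match describes letters only and is not a measured binding site.

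Of the 10 genes, 8 gave signal well above background on all 4 arrays, and Orm1 and Orm2 on none. The orosomucoids are abundant plasma glycoproteins of the adult that bind small lipophilic molecules. Orm1 was at -8.22 and -7.73 on the CD arrays and at -8.07 and -7.88 on the HFD arrays, and Orm2 at -8.30, -7.81, -8.14 and -7.94 on CD replicates 1 and 2 and HFD replicates 1 and 2. The dimmest probes that counted as well above background lay between -6.02 and -5.57, so neither gene has a measured difference. Both were left out by the filter on dim probes, and no fold is given for them. The other 9 probes, of 8 genes, passed the filters and were tested among 41332 probes.

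With limma, 0 of the 9 tested acute phase probes passed an unadjusted p under 0.05 with a change of at least 2-fold, in either direction. Among all tested probes, 0.293% passed with HFD higher and 0.477% with HFD lower. Without the fold cutoff, 0 of the 9 had an unadjusted p under 0.05, against 3.35% of all probes. After Benjamini-Hochberg adjustment over all 41332 probes limma called 0 probes in the whole table (0%), and every acute phase probe had an adjusted p of 1.00. Over the brightest probe of each tested gene, 5 had a positive and 3 a negative log2 fold change, with a median of 0.10 beside 0.03 over all tested probes. These counts do not show that the genes are equal between the diets, because the intervals are wide. The 95% confidence interval of Hp, for example, ran from -0.86 to 0.89 on the log2 scale. For 3 of the 9 probes, both HFD arrays lay above both CD arrays (19.5% of all tested probes), and for 0 of 9 both lay below (11.1% of all).

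**Figure D1:**
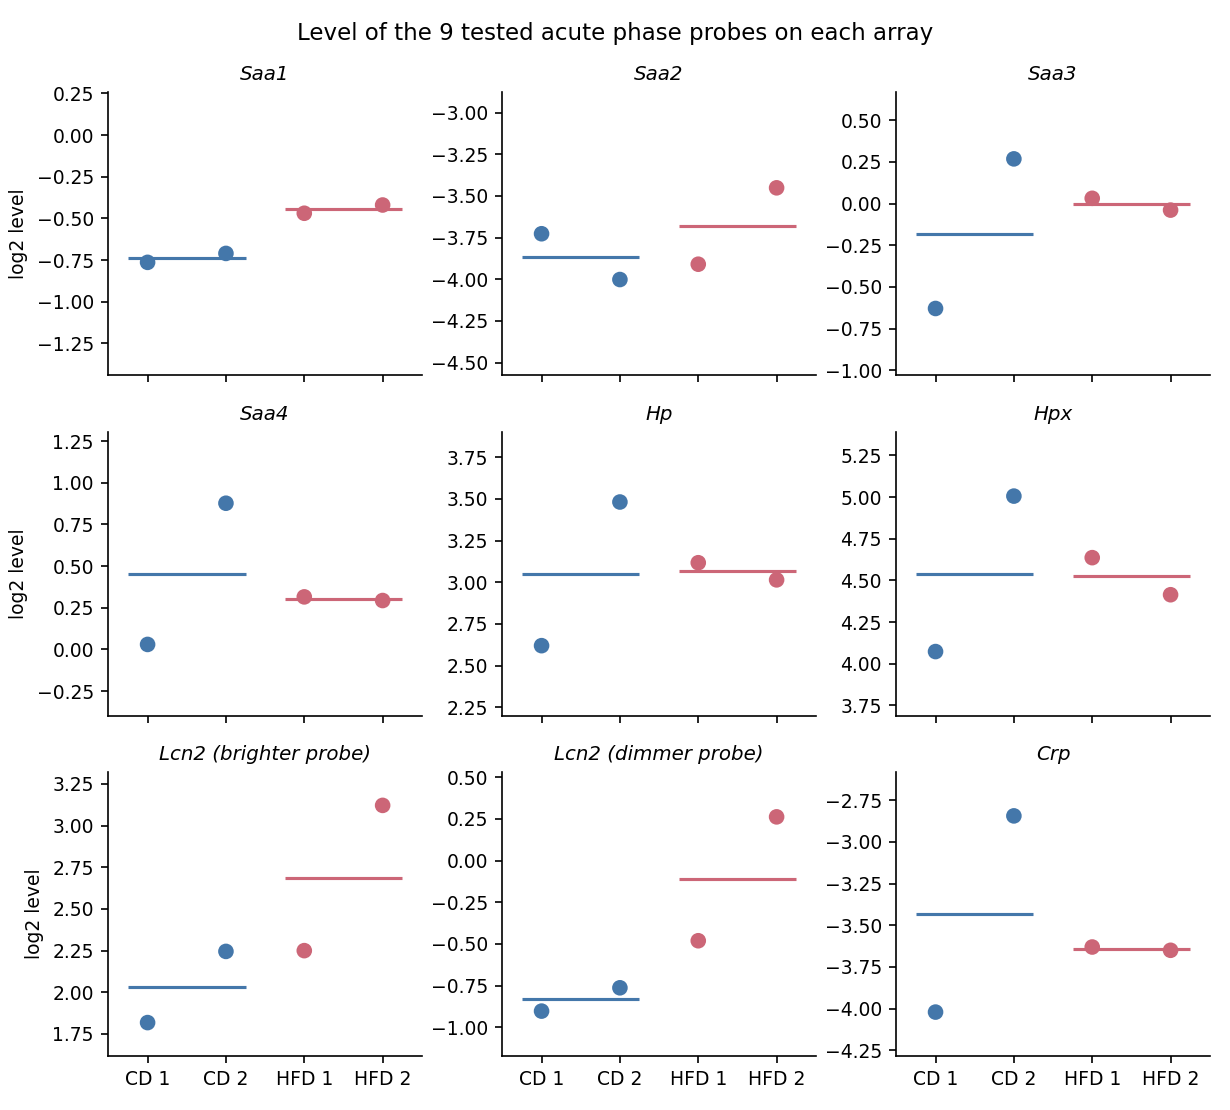
Log2 level (relative to the 75th percentile of the array) of each of the 9 tested acute phase probes on the 4 arrays, with CD in blue and HFD in red. Points are arrays, bars are group means, and each panel has its own axis with the same span of 1.7 log2 units. Both HFD arrays are above both CD arrays for Saa1 and the 2 Lcn2 probes, and the CD arrays enclose both HFD arrays for Saa3, Saa4, Hp, Hpx and Crp.

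Lcn2 had the widest difference between the diets. It encodes a small secreted protein that binds iron-loaded siderophores of bacteria, and is made by hepatocytes, kidney tubules and maturing granulocytes. Its brighter probe was at 1.82 and 2.24 on the CD arrays and at 2.25 and 3.12 on the HFD arrays. The dimmer probe was at -0.90 and -0.76 on the CD arrays and at -0.48 and 0.26 on the HFD arrays. On both probes HFD replicate 2 stood apart at the top, and on the brighter probe HFD replicate 1 was level with CD replicate 2 to within 0.01. The log2 fold change was 0.65 ± 0.36 (SE, n = 2 and 2; 1.57-fold) for the brighter probe and 0.72 ± 0.30 (1.65-fold) for the dimmer. The 95% intervals ran from -0.30 to 1.61 and from -0.06 to 1.51, and limma gave an adjusted p of 1.00 for each. With the replicate number as a block, 2 of the 9 acute phase probes, both of Lcn2, had an unadjusted limma p under 0.05. The share of all tested probes under that p with the block was not counted. The folds stayed the same, under 2-fold, and the limma adjusted p of both probes stayed at 1.00. Without HFD replicate 2 the log2 fold change of the brighter probe was 0.22. Without HFD replicate 1 it was 1.09, with HFD replicate 2, where Lcn2 was highest, as the only HFD array. The gap between the HFD arrays, 0.87 on the brighter probe, was reached or exceeded in that direction by 1.88% of all tested probes.

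Gonad and adrenal markers as a list were also highest on HFD replicate 2. Of 8 such genes with signal well above background throughout, 7 had their highest level there. So did 4 of 8 kidney and mesonephros genes, but the kidney genes with the brightest probes (Eya1, Wt1 and Six2) were highest on other arrays. The trophoblast and decidua list was lowest on HFD replicate 2, at a median of -2.59 relative to each gene's mean. How many of all tested probes were highest on this array was not counted. Relative to each gene's mean, the median of the gonad and adrenal list was -0.31, -0.55, -0.16 and 0.70 on CD replicates 1 and 2 and HFD replicates 1 and 2, and that of the kidney list was -0.16, -0.56, 0.04 and 0.29. Among 12 granulocyte genes, whose cells store Lcn2 in their granules, 2 were highest on HFD replicate 2, and the list median was -0.26, 0.32, 0.05 and -0.08. This list was mixed, with 6 genes higher and 6 lower in HFD, from -0.49 (Prtn3) to 0.32 (Camp) in log2 fold change. Ltf, 1 of the 2, was at 1.44 and 1.94 on the CD arrays and at 1.94 and 2.07 on the HFD arrays. The part of these cells in the Lcn2 values was not tested.

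By root mean square distance of levels relative to each gene's own mean over the 4 arrays, the nearest of 16594 genes to Lcn2 were Fyb2 (0.08 log2 units), Msmb (0.10), Fer1l4 (0.11), Pxt1 (0.12) and Aoc1 (0.13). Fyb2 was at -4.26 and -4.02 on the CD arrays and at -3.98 and -3.14 on the HFD arrays. Msmb, Fer1l4 and Pxt1 lay between -5.53 and -4.26 on all arrays. That is near the dimmest probes that counted as well above background (-6.02 to -5.57). This likeness rests on 4 arrays and describes them only.

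Saa1 and Saa2 encode the main inducible serum amyloid A proteins of the liver, small apolipoproteins carried on high-density lipoprotein. Saa1 was at -0.76 and -0.71 on the CD arrays and at -0.47 and -0.42 on the HFD arrays. On this scaling the replicates of each diet agreed to within 0.06, and the groups did not overlap. The log2 fold change was 0.29 ± 0.16 (1.22-fold, 95% interval -0.13 to 0.72; limma adjusted p = 1.00). A difference with no overlap has a two-sided p = 0.333 in the exact permutation test of 2 against 2, the smallest it can give. In unscaled intensity, Saa1 measured 632 and 431 on the CD arrays and then 701 and 680 on the HFD arrays, and the low value belongs to the CD array that was dimmest as a whole.
Saa2 did not share this order. It was at -3.73 and -4.001 on the CD arrays and at -3.91 and -3.45 on the HFD arrays, so that the groups overlapped. Its log2 fold change was 0.18 ± 0.24 (limma adjusted p = 1.00), with a 95% interval from -0.45 to 0.81. The transcripts of Saa1 and Saa2 are closely related, like their promoters above, and how far each probe also binds the other transcript is not known from the files.

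Saa3, which is induced in macrophages and fat tissue as well as in liver, was at -0.63 and 0.27 on the CD arrays and at 0.03 and -0.04 on the HFD arrays. Saa4, a serum amyloid A gene that is expressed without inflammation, was at 0.03 and 0.88 on the CD arrays and at 0.32 and 0.29 on the HFD arrays. For both genes the HFD arrays lay between the CD arrays. The log2 fold change was 0.18 ± 0.34 (95% interval -0.72 to 1.07) for Saa3 and -0.15 ± 0.32 (-1.01 to 0.71) for Saa4, each with a limma adjusted p of 1.00.

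Haptoglobin binds free hemoglobin and hemopexin binds free heme, and both complexes are cleared from plasma. Hp was at 2.62 and 3.48 on the CD arrays and at 3.12 and 3.01 on the HFD arrays. Hpx was at 4.07 and 5.01 on the CD arrays and at 4.64 and 4.41 on the HFD arrays. Again the CD arrays held the lowest and the highest value of each gene. The group means were within 0.02 of each other for both genes, with a log2 fold change of 0.02 ± 0.33 for Hp and -0.01 ± 0.36 for Hpx (limma adjusted p = 1.00 for each). C-reactive protein, which binds phosphocholine on microbes and dying cells, is a weak acute phase reactant in mice. Crp was at -4.02 and -2.84 on the CD arrays and at -3.63 and -3.65 on the HFD arrays, a log2 fold change of -0.21 ± 0.42 (95% interval -1.33 to 0.91; limma adjusted p = 1.00). The gap of 1.18 between its CD arrays was the widest within a diet among the 9 probes.

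**Figure D2:**
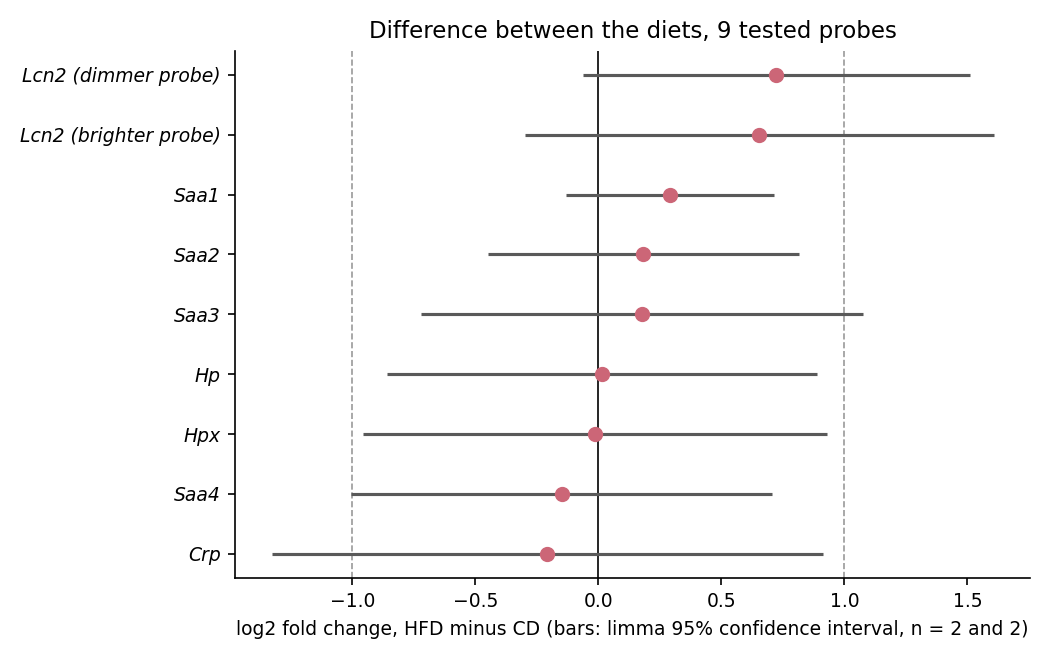
Log2 fold change (HFD minus CD) of the 9 tested acute phase probes, with points for the estimate and bars for the 95% confidence interval from limma (2 arrays per diet). Dashed lines mark a 2-fold change and the solid line marks no change; every interval crosses the solid line, and the 2 Lcn2 probes lie farthest to the right at 0.65 and 0.72.

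On this scaling, the largest spread in most of these genes lay between the CD arrays. Of the 8 tested genes, 7 had more signal on the second CD array than on the first, Saa2 being the exception, and for 5 of them (Saa3, Saa4, Hp, Hpx and Crp) the gap was between 0.85 and 1.18. A gap at least as wide as that of Hp, in either direction, was found for 12.2% of all tested probes. The second CD array was also the higher one for 52.6% of all tested probes, with a median difference of 0.03, and for 68.0% of the 14111 probes with a mean level above 0, with a median difference of 0.17. After quantile normalization the gaps were 0.74 for Hp, 0.76 for Hpx and 0.83 for Saa4, while those of Saa3 and Crp widened to 0.92 and 1.35. Each array was also centred on 10 hepatoblast and hepatocyte markers, an alternative chosen after the data were seen. The gaps of Hp, Hpx, Saa3, Saa4 and Crp then fell to 0.34, 0.41, 0.37, 0.32 and 0.65. The gaps of Saa1 and Saa2 then widened, to -0.47 and -0.80, from 0.05 and -0.27 as scaled here. Between the HFD arrays the same 5 genes differed by at most 0.22.

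Within the arrays numbered 1 and within those numbered 2, the diets differed in opposite directions for 6 of the 8 genes. HFD minus CD was 0.50 within number 1 and -0.47 within number 2 for Hp. For Hpx it was 0.56 and -0.59. The values were 0.66 and -0.31 for Saa3, 0.29 and -0.58 for Saa4, and 0.39 and -0.81 for Crp. Saa2 went the other way, with -0.18 and 0.55. Saa1 differed by 0.29 within each number, and Lcn2 by 0.43 and 0.88 on its brighter probe and 0.42 and 1.03 on its dimmer. Each of these is 1 array against 1 array and carries no test. For Saa3, Saa4, Hp, Hpx and Crp the HFD arrays lay between the CD arrays, so opposite signs had to follow. For Saa1 and Lcn2 the groups did not overlap, so the same sign had to follow. The share of all tested probes with opposite signs was not counted.

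**Figure D3:**
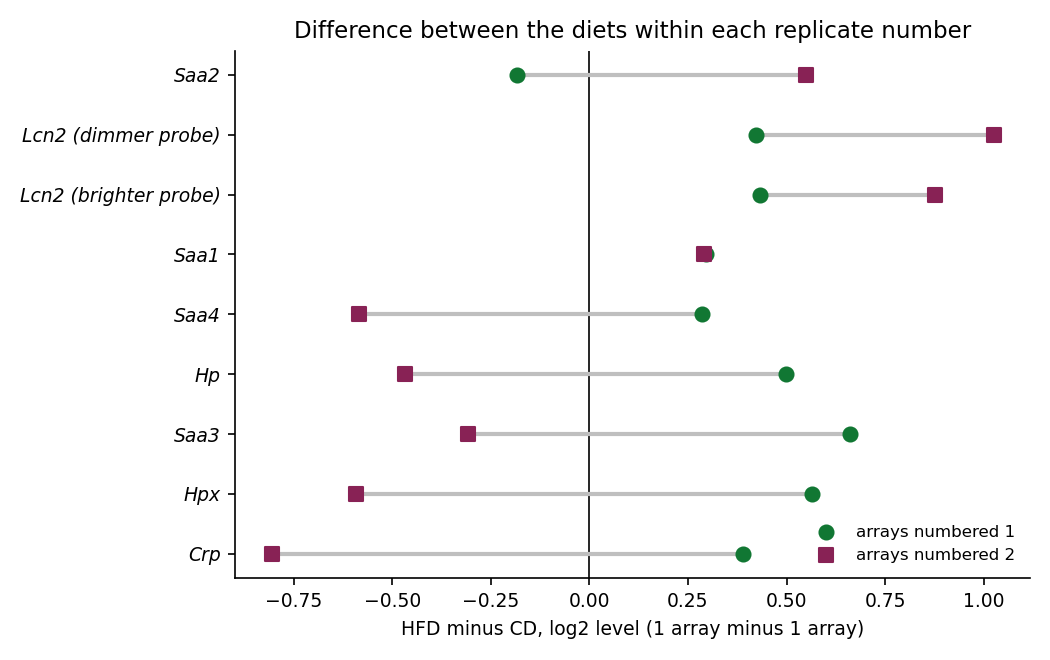
HFD minus CD (difference in log2 level, 1 array minus 1 array) for the 9 tested acute phase probes, with circles for the arrays numbered 1 and squares for the arrays numbered 2. Saa1 and both Lcn2 probes have both points to the right of 0, and the points of the other 6 genes lie on opposite sides.

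Many of the other positive acute phase genes, on a list of 21, had the CD arrays at their ends, as Hp and Hpx did. Of the 20 with signal well above background throughout, 16 were lowest on CD replicate 1 and 15 were highest on CD replicate 2. The share of all tested probes with these lowest and highest arrays was not counted, for this list or for those below. None of the 20 passed the cutoffs, and their median log2 fold change was -0.01, with 8 higher and 12 lower in HFD. The 3 with the brightest probes were C3, the central complement component, and the metallothioneins Mt1 and Mt2, which bind zinc, with log2 fold changes of 0.05, -0.07 and -0.01. Serpina3n was not well above background on any array. Hamp, which encodes the iron hormone hepcidin, was singled out after its values were seen, as it alone on this list had an unadjusted p under 0.05. It was at -2.52 and -1.96 on the CD arrays and at -1.16 and -1.55 on the HFD arrays, a log2 fold change of 0.89 ± 0.28 (limma adjusted p = 1.00), which is under 2-fold.

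Negative acute phase genes are those whose products fall in the response. All 7 (Alb, Ttr, Trf, Rbp4, Apoa1, Ahsg and Serpina6) were lowest on CD replicate 1, and 6 were highest on CD replicate 2. Their median log2 fold change was -0.04, 0 passed the cutoffs, and the 3 with the brightest probes were at -0.07 (Alb, albumin), -0.10 (Trf, transferrin) and -0.05 (Ahsg, fetuin). The medians of the positive and negative lists thus had their lowest and highest arrays in common.

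Of the inducing cytokines, 8 of 9 were tested and 0 passed the cutoffs, with a median log2 fold change of -0.06. Lif was not well above background on any array. The brightest probes were those of Ctf1, Osm and Tnf, at log2 fold changes of -0.14, 0.26 and 0.25. All 13 receptors and signal transducers were tested and 0 passed, with a median of 0.01; Jak1, Stat3 and Tnfrsf1a had the brightest probes. All 9 transcription factors of acute phase genes were tested, 0 passed, and their median was 0.04. Among them Cebpb, which binds C/EBP sites, had a log2 fold change of 0.22, Rela 0.13 and Nr3c1 0.04. The 9 genes for binding partners and clearance had 0 past the cutoffs and a median of 0.19. The heme oxygenase gene Hmox1, which degrades the heme that hemopexin delivers, had a log2 fold change of 0.41. Blvrb and Scarb1, which with Hmox1 had the brightest probes of the list, were at 0.19 and 0.23.

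Markers of the liver's own cells were present on all arrays. All 10 hepatoblast and hepatocyte genes, with the brightest probes for Afp, Apoa2 and Dlk1, were well above background on every array, lowest on CD replicate 1 in 10 of 10 and highest on CD replicate 2 in 8 of 10. Their summed scaled signal was 1106 and 1530 for CD, and 1335 and 1327 for HFD. All 12 erythroid genes (brightest probes for Hba-a1, Hbb-bt and Slc4a1), 12 granulocyte genes (S100a9, Mpo and Csf3r; Ly6g had no probe named) and 11 macrophage genes (Marco, Cd5l and Csf1r, with Vsig4 not well above background on any array) were also present. Lowest on CD replicate 1 were 11 of 12 erythroid, 8 of 12 granulocyte and 10 of 11 macrophage genes. None of the genes in these 4 lists passed the cutoffs, and their median log2 fold changes were 0.04, 0.15, -0.03 and 0.10. The summed signal ran from 1438 to 2063 in CD and 1654 to 1786 in HFD for the erythroid list, from 219.9 to 307 and 251 to 270 for the granulocyte list, and from 67.4 to 87.9 and 84.1 to 86.0 for the macrophage list. The part of these cells in the spread of the acute phase genes was not tested.

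**Figure D4:**
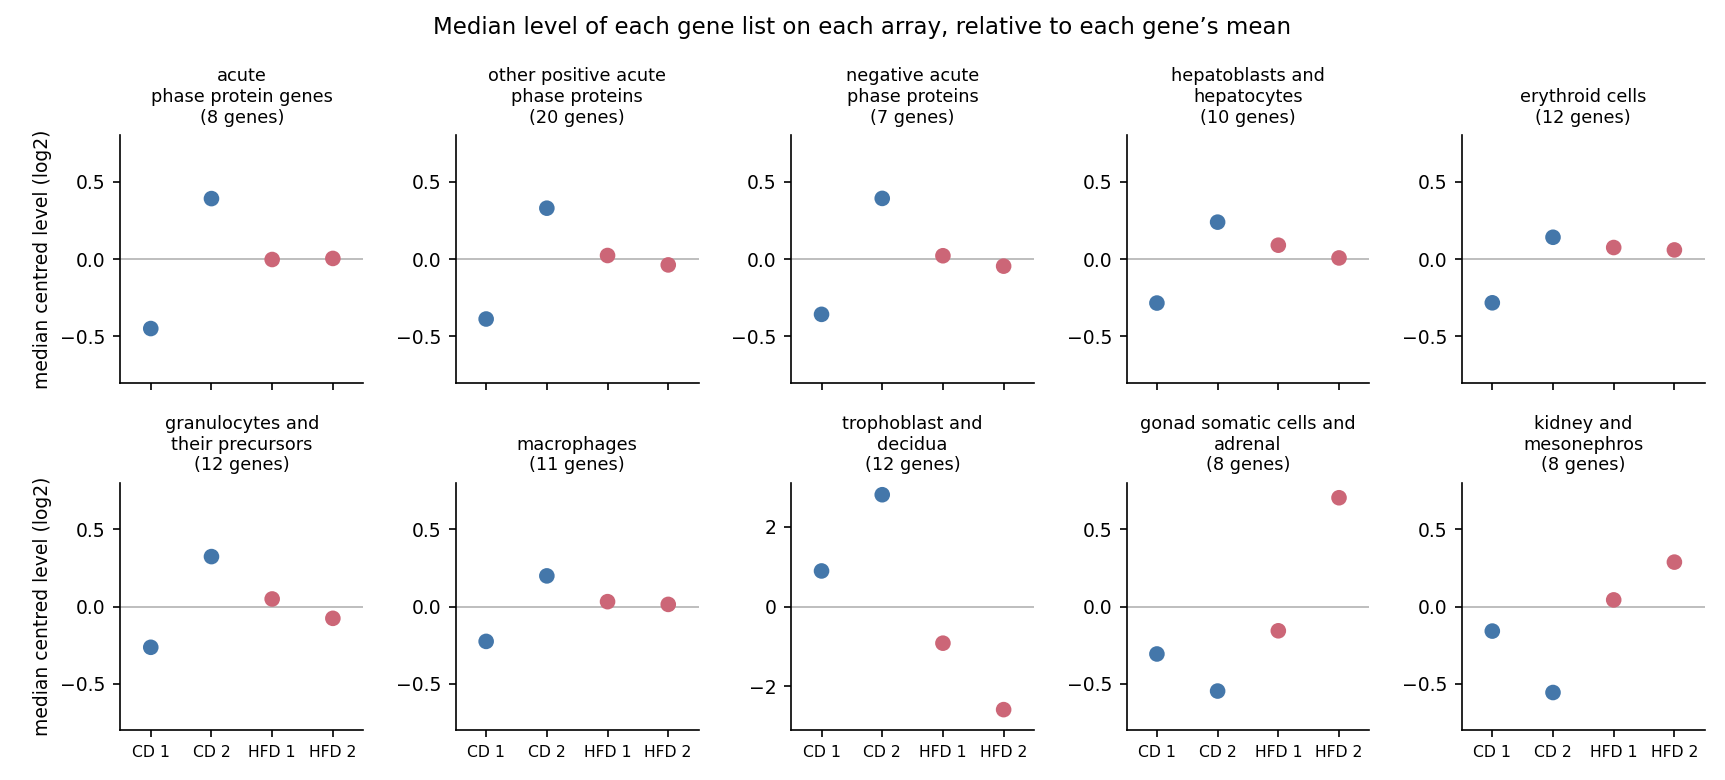
Median over the genes of each list of the log2 level relative to each gene's own mean, on the 4 arrays (CD in blue, HFD in red), over the genes well above background on every array. The trophoblast panel has a wider axis. The acute phase genes, the other positive and negative acute phase genes and the 4 lists of liver and blood cells are lowest on CD replicate 1 and highest on CD replicate 2, while the gonad and kidney lists are highest on HFD replicate 2.

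Markers of tissues outside the liver were measured as well. Of the 14 trophoblast and decidua genes, 6 were tested and 8 were left out by the filter on the coefficient of variation (CV), the latter at log2 fold changes from -4.70 to -3.80. When that filter used log2 values instead, all 8 were tested and passed the cutoffs. In all, 12 of the 14 cleared the background on every array, and their median relative to each gene's mean was 0.89 and 2.80 for CD, and -0.92 and -2.59 for HFD. Tpbpa, Prl3b1 and Gcm1 had the brightest probes, and of the 6 tested Prl8a6 passed the cutoffs, with HFD lower. Prl8a6 was well above background on only 2 arrays, and not on the HFD arrays. The summed scaled signal of the 14 genes was 68.0 to 78.9 in CD and 48.6 to 50.9 in HFD. On every array but CD replicate 2 most of this sum was Gcm1, whose log2 fold change was 0.55. The sum therefore understates the difference in the genes left out by the CV filter. Of the gonad and adrenal genes, Cyp11a1 and Nr5a1 passed the cutoffs with HFD higher. Star and Amh were not tested, and Foxl2, Fdx1 and Cyp17a1 had the brightest probes. The summed signal was 43.4 to 59.7 in CD and 47.2 to 61.3 in HFD. Foxl2, at a log2 fold change of -0.31, had the largest part of this sum on every array, while 6 of the 7 tested genes were higher in HFD. For the kidney list, with its brightest probes for Eya1, Wt1 and Six2, 0 of 7 tested genes passed. Cdh16 was left out by the CV filter at a log2 fold change of 2.10, and passed with the CV on the log2 signal. For this list the sums were 89.5 to 90.7 and 105 to 112, most of it from Eya1. In the lung list, Sftpc, Sftpb and Nkx2-1 passed with HFD lower. Sftpb and Nkx2-1 were well above background on only 2 arrays. On the HFD arrays both lay under the dimmest probe that counted as such, so the size of their folds is uncertain. Sftpd, whose probe was among the brightest with those of Sftpc and Nkx2-1, had a log2 fold change of 1.14. Sftpa1 was not well above background on any array, and the sums were 0.716 to 1.26 and 0.466 to 1.65. In the neuron list, with its brightest probes for Stmn2, Gap43 and Tubb3, 0 of 6 passed, and the sums were 13.9 to 22.4 and 11.1 to 15.8. None of these calls passed Benjamini-Hochberg adjustment in limma. CD replicate 2 held the most trophoblast signal and the highest levels of Saa3, Saa4, Hp, Hpx and Crp. CD replicate 1 had the next highest trophoblast median, 0.89, but the lowest levels of the same genes. The part of such tissue in the acute phase values was not tested.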

How the data were processed

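Fetal livers at 14.5 dpc were profiled on 2 CD and 2 HFD arrays, grouped and numbered by their labels. Per the labels, the authors used Agilent Feature Extraction 11.0.1.1. They deposited a detrended, background-subtracted intensity per spot, not scaled between arrays, and flags (scores of 0 or 1) for outliers and for spots well above background. A further deposited table gives the same signal for 41471 probes, each column divided by 1 constant (within 0.1% for the 41163 probes compared).

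Log2 intensities of unflagged spots were averaged per probe and the 75th percentile of each array subtracted. After the paper's methods, any probe below an array's 20th percentile (14980) or with a CV over 50% in both groups (284) was left out. This CV was computed on linear values, which departs from the log scale the paper states; log2 values were an alternative. The remaining 41332 were fitted in limma 3.58.1 under R 4.3.3 (HFD minus CD, no covariates), with cutoffs of an unadjusted p of 0.05 and 2-fold, and Benjamini-Hochberg values. The limma fit and its cutoffs, not the other steps, were tested on simulated log2 levels. Python 3.11.15, numpy 2.4.6, pandas 2.3.3, Biopython 1.88 and matplotlib 3.10.9 did the rest. Transcripts matched to RefSeq (GRCm38.p6) gave 32994 probes 1 symbol; no probe coordinates are given, since the array has another build. Lists use each gene's brightest probe.

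The members, lists and tests were chosen with earlier results of these data known. The text names every acute phase gene, in each other list the genes past the cutoffs (at most 5 in a cell type list) and the 3 with the brightest probes, and the 5 genes nearest to the acute phase gene with the largest range. Hamp, Prtn3, Camp and Ltf lie outside this rule and were named after their values were seen.

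The replicate numbers were checked as pairs: differences between replicates 2 and 1 correlated at -0.10 between CD and HFD, and no label ties a number to a litter or day, so the block is an alternative only. The others were quantile normalization, normexp (offset 50, on median spot brightness), the deposited table, median or hepatoblast centring, other filters on dim or variable probes, the methods' t-test and its Welch form, no fold cutoff, the mean over a gene's probes, each replicate number alone, and leaving out each array. With 1 slide and 1 scan, neither could serve as a block.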

Additional observations from a re-analysis of the deposited data

How the results depend on the processing

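The count of acute phase probes past the cutoffs was 0 under every alternative run except leaving out 1 array, where it was 0 to 2; the 2 were the Lcn2 probes without HFD replicate 1. Over all probes the count moved from 318 to 48 with normexp background correction, 845 with no filter on dim probes, 97 with the methods' t-test, 46 with Welch's correction and 1383 with no fold cutoff, and it was 654 to 1226 without 1 array. With the replicate number as a block it was 435 over all probes and 0 for the acute phase probes. The block put the 2 Lcn2 probes under an unadjusted limma p of 0.05, and none after adjustment. The share of all tested probes under that p was not counted for the block. Lcn2 and Saa1 kept a positive sign under all 17 alternatives, at 0.22 to 1.09 and 0.22 to 0.32. Most of these could not turn it. The filters and the block leave a fold as it is. With both HFD arrays above both CD arrays, leaving out an array or taking 1 replicate number keeps the sign. Only another normalization or background correction could have turned it. The sign of the other genes turned. Hp was at -0.055 with quantile normalization and at -0.056 with hepatoblast centring, and Hpx at 0.041 with normexp and 0.0033 with median centring; these lie far inside the SE of each gene. Without 1 array the values ran from -0.045 to 0.41 for Saa2, -0.27 to 0.63 for Saa3, -0.57 to 0.27 for Saa4, -0.42 to 0.45 for Hp, -0.48 to 0.45 for Hpx and -0.80 to 0.38 for Crp, where leaving out CD replicate 1 turned the sign of Saa3 and Hp, CD replicate 2 that of Saa4, Hpx and Crp, HFD replicate 1 that of Hp, and HFD replicate 2 that of Saa2 and Hpx. Comparing the arrays numbered 1 alone, chosen after seeing the data, gave -0.18 for Saa2, 0.29 for Saa4, 0.56 for Hpx and 0.39 for Crp, and the arrays numbered 2 alone gave -0.31 for Saa3 and -0.47 for Hp. The median over the 8 measured genes was 0.10, and -0.34 to 0.41 without 1 array. With a single array left in a group, that array is assumed to vary like the rest. The cause of these changes was not tested beyond which array was left out.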
